A study of Drosophila melanogaster with 2 samples.

Results

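Intergenic CTCF peaks were the reproducible peaks of tagged CTCF whose summit lay outside every gene body and more than 1 kb from every transcript start, on the dm6 build. They numbered 680 of the 5443 peaks in the reproducible list (12.5%, 95% Wilson interval 11.6 to 13.4). The other peaks were 3415 promoter peaks, whose summit was 1 kb or less from a start, 1140 intronic peaks and 208 exonic peaks. The map came from ChIP-seq of whole Drosophila melanogaster embryos of both sexes, collected at 0 to 16 h. They belonged to 1 transgenic line in which CTCF is fused to GFP at its C terminus, and chromatin was recovered through the GFP tag with an antibody. The series holds 1 group of 2 biological replicates, numbered 2 and 3, so there was no contrast between conditions and no test across samples. Both replicates carry the tagged protein, and untagged embryos were not analysed here. Whole embryos mix all cell types, so a weak peak in every cell and a strong peak in a few cells cannot be told apart.

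CTCF is a zinc finger protein that reads a long DNA motif and is found at insulators, the elements that keep enhancers and silencers from acting on the wrong promoter. In flies it shares many insulators with other architectural proteins such as CP190 and Su(Hw), and it is known for its role at the domain boundaries of the bithorax complex, the cluster of Hox genes that patterns the posterior body. A binding site between genes usually lies apart from the core promoter sequences that a site at a transcript start lies among.

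The sequences below carry the main result, the CTCF core at the summit. The core was searched on both strands as AGAGGGCGC, AGATGGCGC, AGGGGGCGC or AGGTGGCGC, with the centre of the match within 50 bp of the summit, either exactly or with 1 mismatch. Read on the strand of the match, with 10 bases on either side and the core in capitals, the best copies of strong intergenic peaks were as follows, each from the RefSeq dm6 sequence and named by its flanking genes. The sites from soti/cv-c, Cad89D/Gr89a, Sox21a/Sox21b and lncRNA:CR45624/sbr are exact copies, and those from vn/CG5568 and tara/bor carry 1 mismatch.
soti/cv-c, chr3R:14391438-14391466, minus strand: cagttgttgtAGATGGCGCcaagtctagt
vn/CG5568, chr3L:5869786-5869814, plus strand: ctcgaccagcAGATGGCGTttcgtagctg
Cad89D/Gr89a, chr3R:16497513-16497541, minus strand: gtcttttgctAGATGGCGCttttttagtt
Sox21a/Sox21b, chr3L:14111634-14111662, plus strand: gacagcggttAGATGGCGCattcgaaatc
lncRNA:CR45624/sbr, chrX:10832554-10832582, minus strand: aattgcagctAGGTGGCGCtattaagcta
tara/bor, chr3R:16261028-16261056, plus strand: tttggcccttAGGTGTCGCttcattaggc

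The strongest peak of the whole list, between soti and cv-c, held 3 exact copies, in capitals on the plus strand of the summit window and all read on the minus strand.
soti/cv-c, chr3R:14391348-14391528, plus strand: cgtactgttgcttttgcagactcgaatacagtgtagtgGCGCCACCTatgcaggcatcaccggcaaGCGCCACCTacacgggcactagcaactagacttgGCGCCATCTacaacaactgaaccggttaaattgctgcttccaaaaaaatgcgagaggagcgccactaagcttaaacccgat
The intergenic peak in the bithorax complex, between Glut3 and lncRNA:CR45750, held 3 copies with 1 mismatch each, in capitals.
Glut3/lncRNA:CR45750, chr3R:16798787-16798967, plus strand: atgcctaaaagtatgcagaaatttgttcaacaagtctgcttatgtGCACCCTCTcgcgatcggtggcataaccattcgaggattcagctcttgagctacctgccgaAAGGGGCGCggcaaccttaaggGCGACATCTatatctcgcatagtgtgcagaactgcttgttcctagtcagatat

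Weak intergenic peaks can hold an exact core as well, and the copies in the 5 weakest such peaks are shown with the core in capitals on the strand of the match.
Pex7/hry, chr3L:8670015-8670043, minus strand: cgccaacgccAGAGGGCGCtctgcataaa
CG15550/CG15548, chr3R:30950943-30950971, minus strand: tccgcccaccAGGGGGCGCtgccaatttt
lncRNA:CR45513/CG6873, chrX:18735193-18735221, plus strand: cgcggcccctAGGGGGCGCcacatggacg
CG31128/nAChRalpha2, chr3R:24477552-24477580, minus strand: tcgccacgccAGAGGGCGCtcacgtgcac
CG1387/CR15345, chrX:8390897-8390925, minus strand: ttctcccactAGGTGGCGCtgctatctta

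A few very strong intergenic peaks had no core within 50 bp of the summit. The windows of 2 of them are shown on the plus strand, with every copy of the core that has 1 mismatch or fewer in capitals. In the window between Men and lncRNA:CR44231 the copies stood 54 to 59 bp from the summit on its right and 56 bp on its left, so the summit lay between them, and the right-hand capitals are 2 overlapping copies on opposite strands.
Men/lncRNA:CR44231, chr3R:12723898-12724078, plus strand: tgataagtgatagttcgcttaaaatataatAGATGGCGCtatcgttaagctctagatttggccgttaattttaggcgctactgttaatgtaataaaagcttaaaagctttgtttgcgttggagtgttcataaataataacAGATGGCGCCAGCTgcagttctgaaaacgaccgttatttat
osp/CG15282, chr2L:14706330-14706510, plus strand: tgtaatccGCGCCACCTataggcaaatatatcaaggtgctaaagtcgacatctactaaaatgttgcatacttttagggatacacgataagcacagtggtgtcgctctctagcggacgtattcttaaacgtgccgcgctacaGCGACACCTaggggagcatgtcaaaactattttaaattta

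Intergenic peaks were stronger than promoter and intronic peaks. Their median signal, a score of the authors' peak caller that was used only to rank and describe peaks, was 505.7, against 323.0 for promoter peaks, 354.4 for intronic peaks, 478.7 for exonic peaks and 345.1 for all peaks. The upper tail was longer than in promoter and intronic peaks as well. The upper quartile was 1562 in intergenic peaks, 580.6 in promoter peaks, 853.5 in intronic peaks and 1431 in exonic peaks. Of the 680 intergenic peaks, 120 stood among the strongest decile of all peaks (17.6%, interval 15 to 20.7), where the background over all peaks was 9.99%. The share was 9.11% of promoter peaks and 7.72% of intronic peaks. The difference was 8.54 percentage points from promoter peaks (95% Newcombe interval 5.67 to 11.7) and 9.93 points from intronic peaks (6.76 to 13.3), and both intervals lay above 0. From exonic peaks it was 5.63 points (-0.153 to 10.5), an interval that includes 0. Intergenic peaks made up 20.6% of the summed signal of the list. All intervals here cover counting error over peaks only, because the read depth behind the peaks is unknown, and neighbouring peaks are not independent.

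**Figure D1:**
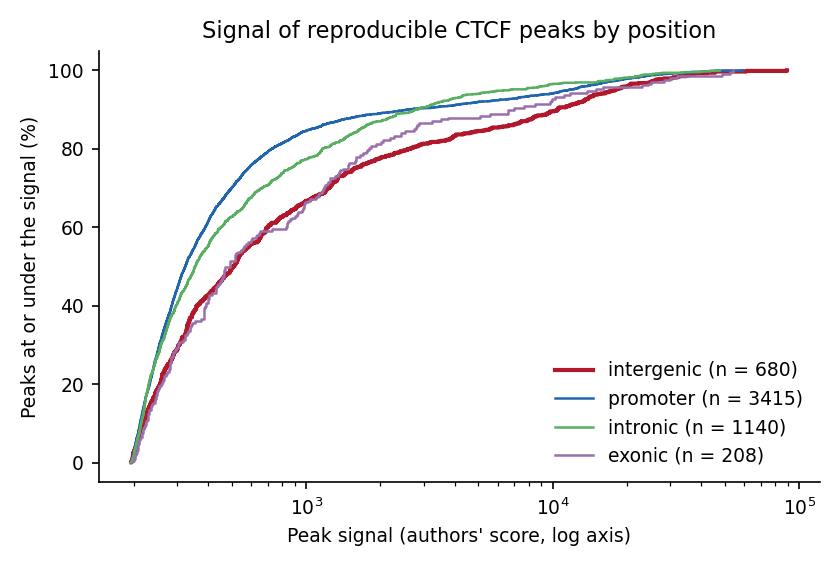
Cumulative share of peaks (y axis, %) at or under each signal (x axis, the authors' score, log axis) for intergenic, promoter, intronic and exonic peaks. The intergenic curve runs to the right of the promoter and intronic curves, with medians of 505.7, 323.0 and 354.4, and its last point is the strongest peak of the list at 89235.

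The same order held in each replicate. Matched intergenic peaks had a median signal of 260.2 in replicate 3 and 241.4 in replicate 2, promoter peaks of 170.1 and 165.1, and intronic peaks of 184.6 and 179.0. In both replicates the intergenic median was the higher one. Values of the reproducible list are on a larger scale than those of a single replicate: over matched intergenic peaks their median ratio to replicate 3 plus replicate 2 was 0.999.

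The 2 strongest reproducible peaks in the genome were both intergenic. The peak between soti, a testis gene of spermatid maturation, and cv-c reached 89235, with 47301 in replicate 3 and 41977 in replicate 2, and ranked first in both. The peak between vn, which encodes a ligand of the EGF receptor, and CG5568 reached 61078, with 32116 in replicate 3 and 28992 in replicate 2. Both sites were thus at the top of each replicate's own list, at ranks 1 and 2 in replicate 3 and 1 and 3 in replicate 2. Next among intergenic peaks came the peak between the cadherin gene Cad89D and the gustatory receptor gene Gr89a, with a signal of 45722 and rank 13 of all peaks, and the peak between CG13970 and CG10651, with 45615. The peak between osp and CG15282 followed at 42268. Of the 20 strongest intergenic peaks, 11 had the exact core, 7 had a core with 1 mismatch and 2 had neither. At 1 mismatch or fewer, 13 had 2 or more copies, with overlapping copies counted separately.

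Several strong sites stood beside developmental regulators. The peak between Sox21a and Sox21b, neighbouring genes for HMG-box transcription factors, reached 35634, with 18480 in replicate 3 and 17170 in replicate 2. The peak between Wnt4 and wg, neighbouring genes for Wnt ligands, had 28236, with 14807 in replicate 3 and 13488 in replicate 2, and no core within 50 bp. The peak between Fs, which encodes the activin antagonist follistatin, and scb, an integrin alpha subunit gene, had 25611. Beside otp, a homeobox gene of the nervous system and hindgut, the signal was 19352, and beside the gap gene kni it was 14717. The peak between the forkhead gene CHES-1-like and CG15478 had 26063 and 2 exact copies of the core. Other genes beside the 20 strongest were sbr, which encodes a messenger RNA export factor (36182), snu, an ABC transporter gene of the cuticle barrier (34763), and RabGGTa, a subunit gene of Rab geranylgeranyl transferase (32620).

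The last of these marks the edge of the 1 kb rule. The intergenic peaks just inside the rule lay 1003 bp from the start of RabGGTa (signal 32620), 1006 bp from tRNA:Val-CAC-1-1 (3909) and 1011 bp from CG17544 (362.3). The promoter peaks just outside it lay 1000 bp from CG43131 (388.1), 989 bp from caps (10304) and 983 bp from Shab (240.7).

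The exact CTCF core was found at 163 intergenic peaks (24.0%, interval 20.9 to 27.3), where the background over all peaks was 13.0%. It was found at 7.2% of promoter peaks, 20.2% of intronic peaks and 31.7% of exonic peaks. The share in intergenic peaks exceeded that in promoter peaks by 16.8 points (13.6 to 20.2). Against intronic peaks the difference was 3.8 points with an interval of -0.109 to 7.82, which includes 0, and against exonic peaks it was -7.76 points (-15 to -0.937). With 1 mismatch allowed, 289 intergenic peaks had a core (42.5%), where the background over all peaks was 25.4%. That share was 25 points above promoter peaks (21.2 to 29.0) and 8.2 points above intronic peaks (3.59 to 12.8). Against exonic peaks, at 50.5%, the difference was -7.98 points (-15.6 to -0.268). Windows of the same width 500 bp to either side of intergenic summits held the exact core in 3 of 1360 cases (0.221%) and a copy at 1 mismatch or fewer in 63 (4.63%). The core written backwards was found at 0 of 680 intergenic summits, which allows a share of up to 0.441% (3 counts). It was also at 0 of the 1360 side windows (up to 0.221%, 3 counts), so it gave no contrast between summits and sides.

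The core was tied to strength. When all 5443 peaks were ranked by signal and divided into quintiles, the exact core was at 45.2% of intergenic peaks in the strongest quintile, and at 24.3%, 13.5%, 2.15% and 7.0% in the quintiles below it. Promoter peaks had 37.1%, 3.69%, 1.36%, 1.45% and 0.421% in the same quintiles, and intronic peaks 58.3%, 27.3%, 6.07%, 1.97% and 1.21%. Promoter peaks thus seldom had the core below the strongest quintile, while intergenic peaks still had it at 36 of 148 in the second quintile. The difference there was 20.6 points (14.2 to 28.2). Against intronic peaks the difference in the exact core changed sign with strength. In the strongest quintile intergenic peaks had the exact core 13.1 points less often (-21.7 to -4.23), whereas in the third quintile they had it 7.44 points more often (0.893 to 15.4) and in the weakest quintile 5.79 points more often (1.55 to 12.6). The excess in the weakest quintile rests on 7 intergenic peaks of 100 and 3 intronic peaks of 248. With 1 mismatch allowed the differences from intronic peaks were -5.92 points (-13.2 to 1.27) in the strongest quintile, 10.2 points (1.12 to 20.1) in the third and 2.94 points (-3.31 to 11.1) in the weakest, so in the first and last of these the interval included 0.

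**Figure D2:**
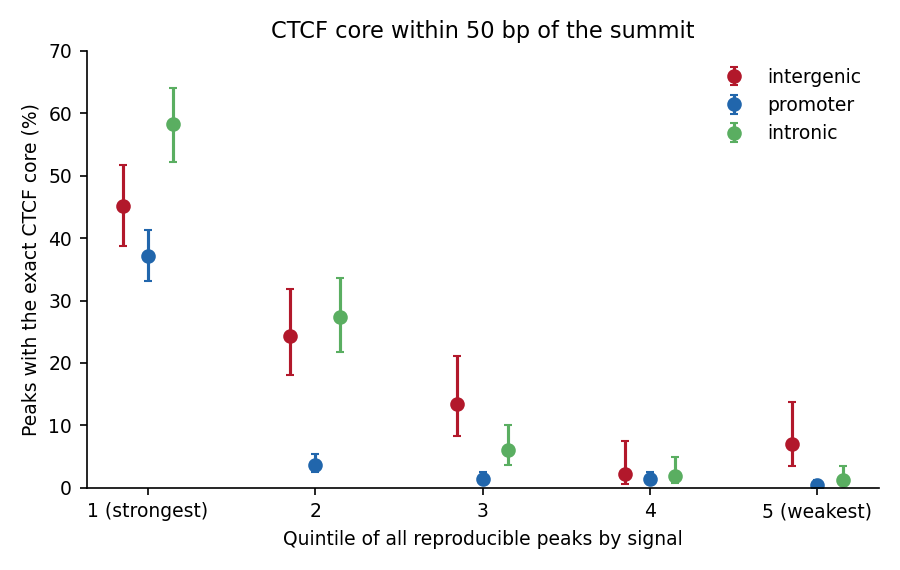
Share of peaks with an exact CTCF core within 50 bp of the summit (y axis, %) by quintile of signal over all 5443 peaks (x axis), for intergenic, promoter and intronic peaks, with 95% Wilson intervals as bars. Intergenic peaks lie above promoter peaks, least so in quintile 4, and below intronic peaks in the strongest quintile, at 45.2%, 37.1% and 58.3%.

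Copies of the core added to the same picture, with overlapping copies on either strand counted separately. Intergenic peaks with 3 exact copies, 2, 1 and none had median signals of 89235 (1 peak), 11905 (6 peaks), 1461 (156 peaks) and 372.5 (517 peaks). With 1 mismatch allowed, the 7 peaks with 3 or more copies had a median of 34763, but the range reached down to 211.9, at a peak between lncRNA:CR45513 and CG6873. Copy number and strength thus ran together over the groups and did not fix the strength of a single site. Among 45 pairs of neighbouring copies that did not overlap, in 40 peaks, the median spacing was 35 bp. Of these, 26 pairs pointed the same way (57.8%, interval 43.3 to 71.0). Another 27 neighbouring pairs overlapped and were left out of the spacing, but they count in the copy numbers at 1 mismatch or fewer.

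Within the exact core, its letters also went with signal. AGATGGCGC was the form at 78 of 163 intergenic peaks, with a median signal of 2701, and AGGTGGCGC at 56, with 1287. AGAGGGCGC was the form at 16 peaks, with a median of 4167, and AGGGGGCGC at 13, with 634.0 and a highest value of 2279. The lower and upper quartiles were 691.6 and 10239 for AGATGGCGC and 383.0 and 1132 for AGGGGGCGC, so the ranges overlapped. Outside the searched letters, the base before the core was T in 50.3% and C in 41.7% of the 163 copies, and 4 bases before it C stood in 68.1% (60.6 to 74.8), where C made up 19.6% of the bases within 100 bp of intergenic summits. The base after the core was C in 44.8% and T in 44.2%.

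The core sat at the summit and had no preferred direction. Its median distance from the summit was 13 bp, and 70.6% of the 163 were within 20 bp. The search reached 50 bp, so no distance could be longer. Of 156 intergenic peaks with a single exact copy, 77 had it on the plus strand (49.4%, 41.6 to 57.1). Toward the nearest transcript start pointed 67 (42.9%, 35.4 to 50.8), an interval that includes an even split.

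Strong intergenic peaks without a core were a minority, and some of them were second summits beside a peak with a core. In the strongest quintile, 54 of 228 intergenic peaks had no core at 1 mismatch within 50 bp (23.7%, 18.6 to 29.6), against 181 of 531 promoter peaks (34.1%) and 46 of 259 intronic peaks (17.8%). Of the 54, only 6 had such a core when the window was widened to 100 bp, 1 had the su(Hw) core and 0 had the DRE or Motif 1. Some shared their interval with a stronger summit that had the exact core, as at CG5819/wdp (4325) and Tollo/Best4 (1313). A window of 100 bp did not reach the core of those neighbours, and such summits were not counted apart. The 5 strongest were osp/CG15282 (42268), Wnt4/wg (28236), DCX-EMAP/CG13465 (18992), CG34458/Pgant9 (18950) and Men/lncRNA:CR44231 (16822). Of these windows, 3 reached a core when widened, as 2 of the printed windows show, with copies 55 and 78 bp from the summit at osp/CG15282, 58 bp at Wnt4/wg and 54 to 59 bp at Men/lncRNA:CR44231. DCX-EMAP/CG13465 and CG34458/Pgant9 had none within 100 bp.

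Some motifs of other factors separated intergenic peaks from promoter peaks. Against intronic peaks the intervals overlapped for each of these motifs. The su(Hw) core, TGCATACT or TGCATATT on either strand and the motif of the gypsy insulator protein, was at 34 intergenic peaks (5.0%, 3.6 to 6.91), against 2.2% of promoter peaks, 4.04% of intronic peaks and 2.9% of all peaks. Windows 500 bp to the side of intergenic summits had it at 0.809%. These 34 peaks had a median signal of 416.4, 7 of them were in the strongest quintile, and 5 also had the exact CTCF core. The strongest were at osp/CG15282 (42268), Atet/lncRNA:CR44697 (20378), kni/cmpy (14717) and Pex7/hry (13995), the last beside the pair-rule gene hairy. The osp/CG15282 copy is shown with the su(Hw) core in capitals.
osp/CG15282, chr2L:14706383-14706410, plus strand: actaaaatgtTGCATACTtttagggata

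Promoter elements were rarer at intergenic summits than at promoter summits. The DRE, TATCGATA, the element read by the factor DREF, was at 3 intergenic peaks (0.441%), the same share as in the side windows. It was at 4.51% of promoter peaks, 0.614% of intronic peaks and 3.01% of all peaks. Motif 1, searched as GGTCACAC, was at 5 intergenic peaks (0.735%, 0.314 to 1.71) and at 0 of 1360 side windows (up to 0.221%, 3 counts). It was at 4.07% of promoter peaks, 0.0877% of intronic peaks (0.0155 to 0.495) and 2.66% of all peaks. The GAGA repeat GAGAGAG was at 1.32% of intergenic peaks and 1.47% of their side windows, with overlapping intervals. It was at 1.84% of intronic peaks and 1.86% of all peaks. The Pho word GCCAT was at 29.7% of intergenic peaks and 18.9% of side windows, and at 23.3% of all peaks, but it overlaps the CTCF core, since AGATGGCGC contains it on the other strand. Among the 391 intergenic peaks without a CTCF core at 1 mismatch it was at 17.1%, against 18.5% of their side windows. Median GC content within 100 bp was 38.3% at intergenic summits, 38.3% at promoter summits and 39.3% at intronic summits, and 41.3% over intergenic positions that the rule allows.

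The 2 replicates listed nearly all intergenic peaks. A summit within 100 bp was listed in replicate 3 for 670 peaks and in replicate 2 for 674, and in both for 664 (97.6%, interval 96.2 to 98.5), where the background over all peaks was 96.1%. The share was 95.3% of promoter peaks, a difference of 2.39 points (0.81 to 3.57), and 97.5% of intronic peaks, a difference of 0.103 points (-1.52 to 1.5). These lists also served as input to the list of reproducible peaks, so a high share follows in part from how that list was made. Signal was higher in replicate 3 at 492 of the 664 (74.1%), with a median log2 ratio of replicate 3 over replicate 2 of 0.141 and an SD of 0.32 over peaks. This shift was not particular to intergenic peaks. The median log2 ratio was 0.105 over all matched peaks, 0.0754 at promoter peaks, 0.138 at intronic peaks and 0.167 at exonic peaks. The 20 strongest intergenic peaks all had the higher signal in replicate 3. Across the 664 peaks the log signals had a Pearson correlation of 0.988 and a Spearman correlation of 0.955. Among the 246 peaks at or under the median of the whole list they were 0.234 and 0.305. Those peaks were chosen on a signal close to replicate 3 plus replicate 2 and span a narrow range, which lowers a correlation by construction, so the values are not a measure of how well weak sites repeat.

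**Figure D3:**
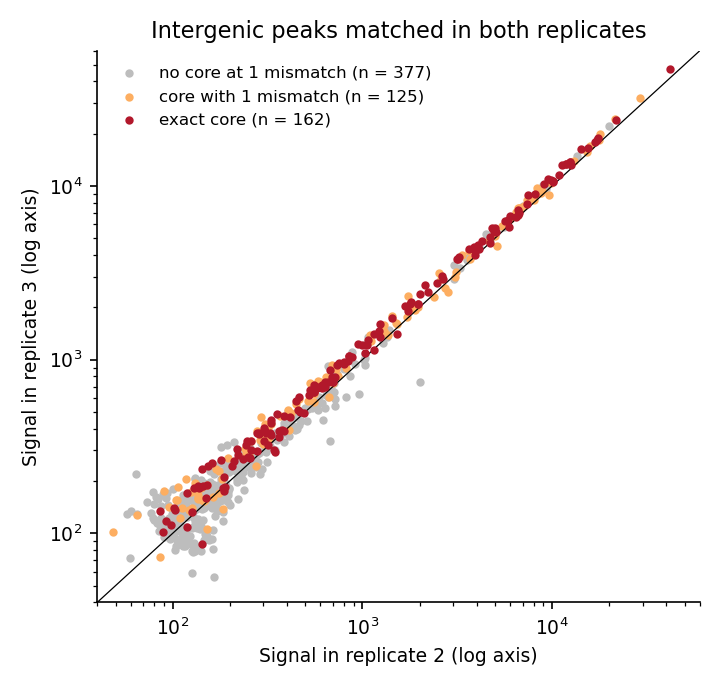
Signal in replicate 3 (y axis, log axis) against replicate 2 (x axis, log axis) for the 664 intergenic peaks matched in both, coloured by CTCF core; the line marks equal signal. Strong peaks lie close above the line, weak ones scatter around it, and the grey point far below it near 2000 in replicate 2 is the peak between bin and Mp.

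Of the sites that differed most between replicates, 2 stood above the intergenic median signal. The peak between bin, a forkhead gene of the visceral mesoderm, and Mp, which encodes a collagen, had 744.8 in replicate 3 and 2002 in replicate 2, a log2 ratio of -1.43, and the peak between CG8519 and ple, the tyrosine hydroxylase gene, had 338.7 and 677.8. The highest ratio was 1.78, at bdl/Atet, with 219.5 in replicate 3 and 63.72 in replicate 2. Of the 10 peaks with the largest differences, 5 in each direction, none had the exact core, where 24.0% of all intergenic peaks did. The peak at dysc/Rgl had a copy with 1 mismatch. Apart from those at bin/Mp and CG8519/ple, the 10 lay in the fourth and the weakest quintile of signal. There 2.15% and 7.0% of intergenic peaks had the exact core.

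Intergenic peaks lay nearer to genes than the sequence open to them. Sequence that the rule allows, outside genes and more than 1 kb from every start, made up 33.6 Mb of the chromosome arms (25.1%), which gave 20.2 intergenic peaks per Mb (exact Poisson interval 18.7 to 21.8). The median distance to the nearest transcript start was 3498 bp for intergenic peaks and 6361 bp for allowed bases, and to the nearest gene body 1792 bp and 4851 bp. Peaks 1 to 2 kb from a start were 28.2% of intergenic peaks, where 14.2% of allowed bases lay, and peaks over 10 kb away were 12.9%, where 36.0% of allowed bases lay. A gene's 3' end was the nearest gene edge for 429 of the 680 (63.1%, 59.4 to 66.6), and for 56.2% of allowed bases. Allowed bases reached 356251 bp from a start and intergenic peaks 56434 bp. Allowed sequence was not filtered for whether a peak could be called in it. The part of this in these comparisons, and in the densities below, was not tested.

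The sites nearest to starts had the core least often. The exact core was at 13.5% of intergenic peaks 1 to 2 kb from a start (9.41 to 19.1), 26.3% at 2 to 5 kb (21.2 to 32.1), 30.7% at 5 to 10 kb (24.0 to 38.4) and 28.4% beyond 10 kb (20 to 38.6). The first interval lies below the next, and the 3 farther bins overlap. Median signal moved little over the same bins, at 518.7, 526.0, 508.4 and 453.3.

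Gap length showed the same opposition of density and motif. Gaps are the stretches between neighbouring gene bodies, and those under 5 kb held 69.2 intergenic peaks per Mb of allowed sequence (60.0 to 79.3). Density was 26.5 at 5 to 10 kb, 23.0 at 10 to 20 kb, 16.1 at 20 to 50 kb and 4.04 in gaps of 50 kb or more (2.78 to 5.68). The exact core share ran the other way, at 15.7% (11.3 to 21.3), 23.6% (17.1 to 31.7), 26.9% (20.8 to 33.9), 30.5% (23.5 to 38.5) and 33.3% (19.8 to 50.4). Intervals of neighbouring bins overlapped, and the last, which rests on 33 peaks, also overlapped the first.

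**Figure D4:**
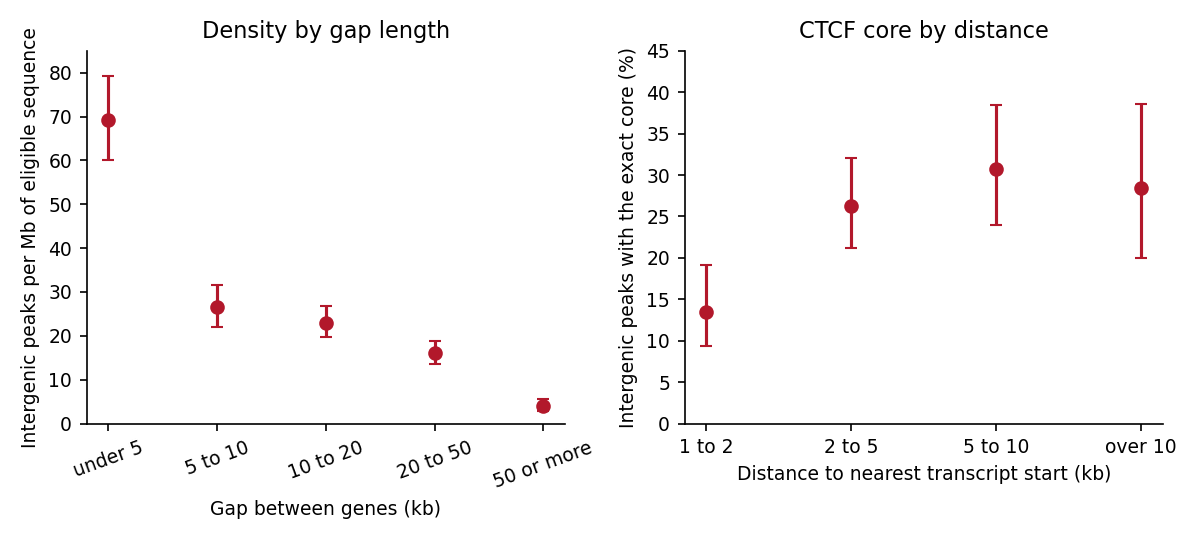
Left, intergenic peaks per Mb of allowed sequence (y axis) by length of the gap between genes (x axis, kb), with exact 95% Poisson intervals. Right, share of intergenic peaks with the exact core (y axis, %) by distance to the nearest transcript start (x axis, kb), with 95% Wilson intervals; density falls with gap length to 4.04 per Mb, and the core share is lowest at 1 to 2 kb, at 13.5%.

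By orientation of the flanking genes, intergenic peaks were spread much as the sequence was. Gaps between convergent genes held 202 intergenic peaks (29.7%, 26.4 to 33.2), where 27.8% of allowed bases within gaps lay. Divergent gaps held 145 (21.3%) with 20% of the bases, and gaps between genes on the same strand 333 (49.0%) with 52.3%. Each base share lay inside the interval of the peak share. The exact core was at 23.3% of convergent, 18.6% of divergent and 26.7% of same-strand peaks, with overlapping intervals.

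Density was similar over most arms. It was 22.7 per Mb on X, 22.8 on 2L, 20.2 on 3L and 21.8 on 3R, and lower on 2R, at 13.7 (11.1 to 16.7), where transposable element entries covered 15.9% of allowed bases, with 11.4% over all arms. Chromosome 4, a small and largely heterochromatic chromosome, had 11 intergenic peaks in 0.218 Mb, or 50.6 per Mb (25.2 to 90.5), with a median signal of 2680. Transposable element entries covered 60.4% of its allowed bases, so the arms with the lowest and the highest density both had more cover than all arms together, and the part of that cover in the density was not tested. Beside those at mir-9385 described below, its sites stood between Sox102F and fd102C (8569), fuss and toy (2680), ey and bt (526.4), and Asator and zfh2 (524.5), named after their values were seen. Both ey and toy encode Pax6 proteins of eye development. The exact core was at 36.9% of the 111 intergenic peaks on X and at 1 of the 11 on chromosome 4.

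Most occupied gaps held a single peak. Of 4782 gaps with allowed sequence, 525 held an intergenic peak, 417 of them 1 peak and 108 of them 2 or more. The gaps with several held 263 of the 680 peaks (38.7%). In 7 gaps there were 4 or more, and these fell into different kinds by signal. The gap between mir-9385 and lncRNA:CR43437 on chromosome 4 held 4 strong peaks with signals of 7319, 25156, 16285 and 30872. The gap between Jhbp1, named for juvenile hormone binding, and CG14662 held 5, of which 30544 and 7339 were strong and 354.8, 497.0 and 197.9 weak. Gaps beside RunxA, a Runx transcription factor gene, and between Tollo, a Toll-family receptor gene, and Best4 held 4 each, 2 of them with the exact core.

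The other 3 crowded gaps held weak peaks. Between tRNA:Ile-TAT-1-2 and CG13898 stood 7, of which 1, at 1339, had the exact core and the other 6 were under 300. Between NijA, which encodes the cell surface protein ninjurin A, and CG43245 stood 7 with a highest signal of 569.2 and no exact core. Between lncRNA:CR44363 and CG7560 stood 6 with a highest signal of 432.7 and no core at 1 mismatch. Some of these are separate summits of overlapping intervals, and 16 intergenic peaks shared their interval with another. After overlapping peaks were merged 640 remained.

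**Figure D5:**
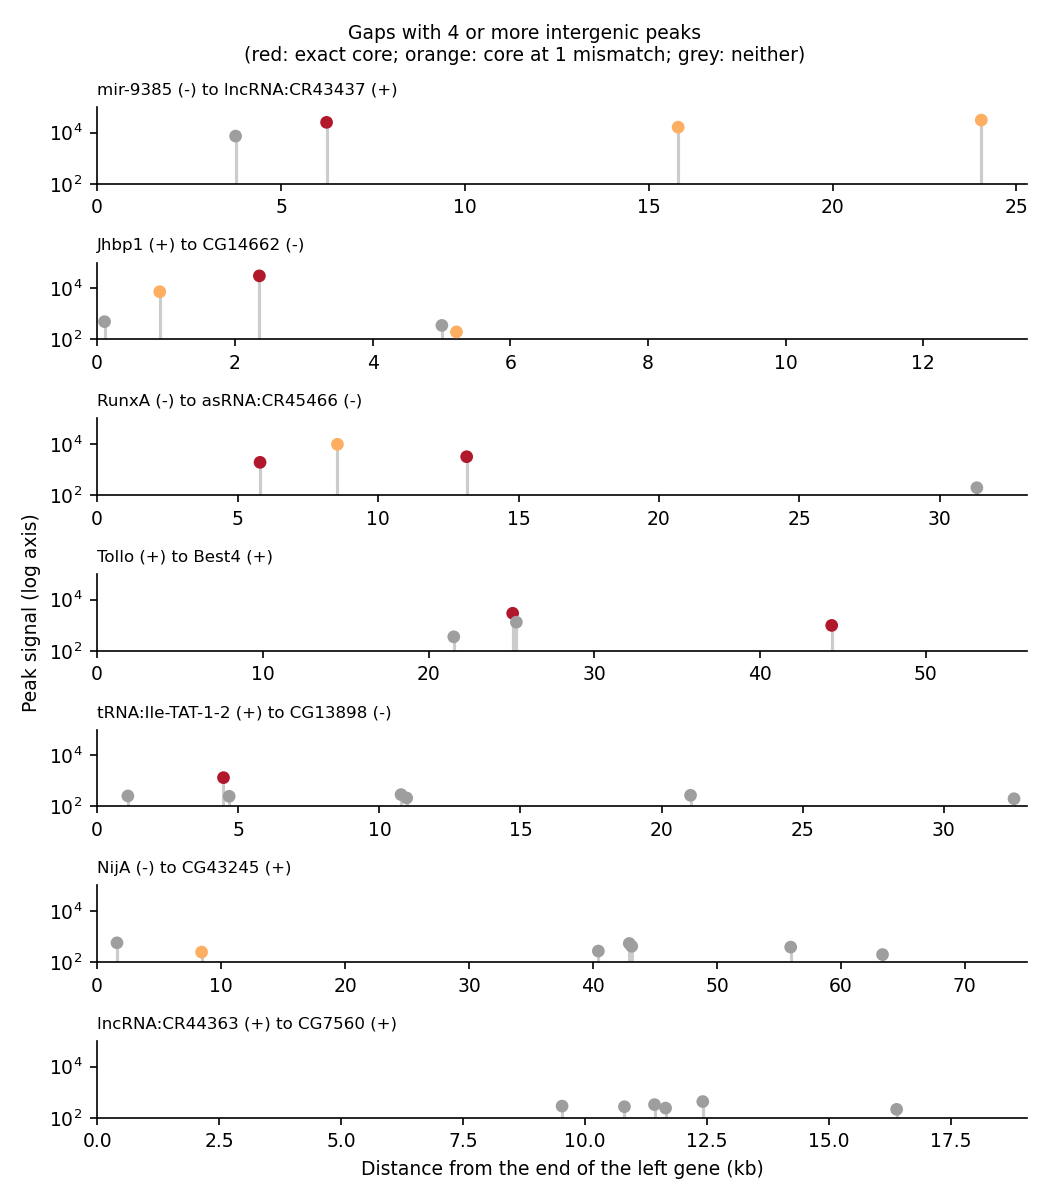
Intergenic peaks in the 7 gaps with 4 or more, each panel 1 gap, with distance from the end of the left gene (x axis, kb) and signal (y axis, log axis); colours give the CTCF core. The top panel, beside mir-9385, has 4 peaks at 7319 or more, and the bottom panel, beside lncRNA:CR44363, has 6 peaks at 432.7 or less.

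Each Hox complex held intergenic peaks, where 12.5% of all reproducible peaks were intergenic. In the bithorax complex 1 of 19 reproducible peaks was intergenic, at chr3R:16797914-16799488 between Glut3, a sugar transporter gene, and lncRNA:CR45750, at a signal of 37722, with 19814 in replicate 3 and 17959 in replicate 2. In the Antennapedia complex, which patterns head and thorax, 5 of 16 peaks were intergenic, and none of the 5 had a core at 1 mismatch, where 42.5% of all intergenic peaks did; the complexes were not tested against each other. Their signals were 1164 beside pb, 789.4 and 861.1 on either side of Dfd, 910.1 beside Scr and 1275 beside ftz. Replicate 3 gave 562.8, 404.4, 404.3, 441.0 and 625.6 at these sites and replicate 2 gave 610.9, 380.4, 440.2, 474.3 and 643.4. All 5 were above the intergenic median of 505.7 and below the bithorax site, also within each replicate.

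Genes beside intergenic peaks were described by list. The lists were chosen with earlier results of these data known, so their shares are descriptions and not tests. Of 7255 genes next to a gap with allowed sequence, 995 had an intergenic peak in that gap, a background of 13.7%. Homeobox and patterning genes had one at 27 of 72 (37.5%, 27.2 to 49.0), led by Sox21b, wg, otp and kni. Their gaps were longer, with a median of 8056 bp against 3092 bp over all genes, and longer gaps hold a peak more often. Set by the longest gap beside the gene, the list had 2 of 16 (12.5%) under 5 kb, 9 of 19 (47.4%) at 5 to 10 kb, 5 of 19 (26.3%) at 10 to 20 kb and 11 of 18 (61.1%) above. All genes had 6.59%, 16.8%, 25.4% and 36.0% in the same bins. The list's interval lay above the share of all genes at 5 to 10 kb (27.3 to 68.3) and above 20 kb (38.6 to 79.7), and included it in the other 2 bins.

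The other lists were as follows. Long noncoding RNA genes had an intergenic peak at 222 of 1146 (19.4%), and their shares by gap length were 8.01%, 17.8%, 24.2% and 39.8%, with intervals that included the share of all genes in each bin. Chemosensory receptor genes had one at 16 of 100 (16%), led by Gr89a (45722), Or98b (8238), Or67d (6917) and Gr98d (5349). Transfer RNA genes had 13 of 68, microRNA genes 4 of 20, small nucleolar RNA genes 2 of 4, cytochrome P450 genes 5 of 32 and immunoglobulin cell surface genes 6 of 48. Cuticular protein genes had 4 of 58 (6.90%, 2.71 to 16.4), Osiris genes 3 of 23, odorant binding protein genes 1 of 16 and Hox genes 3 of 7. In these lists the interval of each share included 13.7%, with 3 exceptions: small nucleolar RNA genes, 15 to 85, which rests on 4 genes, Hox genes, 15.8 to 75, which rests on 7, and long noncoding RNA genes, 17.2 to 21.8. Strong sites within them were beside Cpr100A (9771) and Cpr76Ba (9506), cuticle genes whose peaks had no core at 1 mismatch, Osi1 (14230) and Cyp318a1 (8428).

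Genes next to an intergenic peak and other genes had CTCF promoter peaks at shares with overlapping intervals. Of the 995 genes, 214 also had a promoter peak (21.5%, 19.1 to 24.2), against 1391 of 6260 other genes next to allowed sequence (22.2%, 21.2 to 23.3). The nearest other CTCF summit lay at a median of 6224 bp from intergenic peaks, 4056 bp from promoter peaks and 4418 bp from intronic peaks, and within 2 kb for 27.1%, 33.0% and 31.4%.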

How the data were processed

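The values analysed were 3 peak lists on dm6, per the file headers: a relaxed list for each of the 2 replicates, called from alignments against a control, and a list that the authors thresholded by the irreproducible discovery rate from these and the pooled data. The deposited signal column is a score that the authors' caller gave each peak; its scale is not stated, so it served for ranking and description only. Aligner, peak caller and their versions: not given in the sources used here. The read depth is unknown, and control libraries, signal tracks and the dm3 lists were not used here.

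Gene bodies and transcript starts came from Ensembl release 115 with the FlyBase annotation, on X, 2L, 2R, 3L, 3R and 4, with transposable elements left out, and sequence from RefSeq dm6. Each summit was put in 1 class (promoter, then exonic, intronic, intergenic). Coordinates are 1-based. A motif was counted, on either strand, when its centre was 50 bp or less from the summit. Shares have 95% Wilson intervals, differences of shares Newcombe intervals and densities exact Poisson intervals. With 1 group there was no test across samples.

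The members, motifs and gene lists were chosen with earlier results of these data known. Of 80 homeobox and patterning names all were found, 3 through synonyms in a RefSeq table. Named were the 20 strongest intergenic peaks, every one in the Hox complexes, gaps with at least 4, up to 4 genes for each list, the 5 strongest without a core, the 5 weakest with an exact core and the 5 largest and 5 smallest ratios between replicates; peaks beside 1 gene are not reported here. Alternatives were other promoter distances, protein-coding genes only, the 2721 strongest peaks, merged peaks, each replicate alone and other windows. The functions passed 8 of 8 checks on simulated data. Scripts ran in Python 3.11.15 (scipy 1.17.1, numpy 2.4.6, pandas 2.3.3, matplotlib 3.10.9).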

Additional observations from a re-analysis of the deposited data

How the results depend on the processing

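The 9 main results were recomputed under 68 combinations of result and alternative, and 51 stayed within the interval of the reported value (for the count, within 1.5 times). The 2721 strongest peaks alone held 422 intergenic peaks with a median signal of 1192, the exact core at 34.6%, a core at 1 mismatch at 57.8%, both replicates at 99.1% and company in the gap at 23.2%; fewer and stronger peaks enter by construction. With starts over 2 kb away the core shares were 28.1% and 47.3%, and with 500 bp the share between convergent genes was 24.9%. With the motif centre within 25 bp the core shares were 19.9% and 34.6%. Summits within 50 and 200 bp in both replicates gave 91.3% and 99.3%. The share in a gap with another intergenic peak was 48.9% with protein-coding genes only, where gaps are longer, and 31.6% with overlapping peaks merged. The strongest 5443 peaks of 1 replicate gave median signals of 253 to 265, on the smaller scale of a single replicate, with 667 to 669 intergenic peaks and the exact core at 23.5% to 24.1%. No result changed direction, since none is a signed difference. No paired analysis was possible because the series holds 1 group. Depth is unknown, so a difference in signal and the absence of a peak could not be weighed against counting noise.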

Other observations

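Between neighbouring genes whose symbols share a stem stood 13 intergenic peaks (1.91%, interval 1.12 to 3.24), where 0.941% of allowed bases within gaps lay. Beside Sox21a/Sox21b they included CadN/CadN2, a pair of neuronal cadherin genes (signal 11677), and Wnt6/Wnt10 (1674). The peaks at Sox21a/Sox21b (35634), CadN/CadN2 and Wnt6/Wnt10 each had the exact core. Weaker peaks without a core stood between slp1 and slp2, pair-rule genes (561.8), and between ph-d and ph-p, Polycomb group genes (255.1).

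Transposable element entries held the summits of 10 intergenic peaks (1.47%, interval 0.801 to 2.69), while they covered 11.4% of allowed bases. The share was 0.176% at promoter peaks and 0.0877% at intronic peaks. None of the 10 had the exact core. The strongest lay in a BS element between bin and Mp (3518), the peak with 744.8 in replicate 3 and 2002 in replicate 2, and the next in a jockey element (1526). How reads from repeated sequence were placed is unknown here, and its part in these values was not tested.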
